A study of Mus musculus with 16 samples.

Results

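Genes of the nitric oxide, endothelin and angiotensin-kinin systems, by which blood vessels set their own tone, were followed in whole calf muscle of 16 male mice. The 10 members are Nos3, Cav1, Edn1, Ednra, Ednrb, Ece1, Ace, Prcp, Agtr1a and Bdkrb2. They were chosen by name, with earlier results of these data known. Of them 9 had a probe set with a single gene symbol, so 9 of 13601 genes tested are described. Ednra, the endothelin A receptor, had no such probe set in the annotation used, and its expression was not analysed here.

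Each mouse gave 1 expression array of gastrocnemius muscle at 16 weeks of age. The deletion group (n = 8) was FVB/n mice with Mx1-Cre and floxed FoxO1, FoxO3 and FoxO4 alleles, which the labels also name a knockdown. The control group (n = 8) was littermates with the same floxed alleles and no Cre, labelled wild type. Both groups had 3 injections of polyinosine:cytidine at 4 to 5 weeks of age, and from 7 to 8 weeks of age both spent 8 weeks on a diet whose fat made up 58%, its protein 16.4% and its carbohydrate 25.5%. The labels call the deletion endothelial directed, but Cre stood under Mx1, a promoter that answers to interferon in many cell types. All deletion mice and no controls carried Cre, so its own effects and those of losing FoxO cannot be told apart.

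Nitric oxide made by the endothelium spreads to the smooth muscle of the vessel wall and relaxes it. Endothelin 1 is cut from a precursor by a converting enzyme and constricts vessels through receptors on smooth muscle, whereas its B receptor on endothelial cells also clears the peptide and triggers nitric oxide release. Angiotensin-converting enzyme makes the constrictor angiotensin II and destroys the dilator bradykinin, and other peptidases break angiotensin II down.

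The angiotensin-degrading peptidase Prcp, the endothelin B receptor Ednrb and the caveolar coat protein Cav1 rose in the deletion mice, and no member fell. Prcp was 2.12-fold higher (95% interval 1.69 to 2.67), Ednrb 1.81-fold higher (1.46 to 2.25) and Cav1 1.34-fold higher (1.2 to 1.5), on the scale of RMA values (n = 8 each). The other 6 members, Nos3, Edn1, Ece1, Ace, Agtr1a and Bdkrb2, did not pass the threshold, an adjusted p under 0.05 over all genes tested with limma. Among all genes tested, 1.83% passed in either direction, 1.53% as higher and 0.301% as lower, and among the members 3 of 9 passed, all as higher. Markers of endothelial cells rose as well, 11 of 20 of them, with a median difference of 0.46, as did 3 of 12 macrophage markers. None of the 3 member calls held with the endothelial marker list as a covariate. None held without 6 mice with high levels of the liver transcript Alb, a fit in which 7 of all genes passed. Only that of Prcp held with the macrophage list as a covariate. All 3 calls held with a list of liver transcripts as a covariate and all mice kept (limma adjusted p at most 0.0172). Of the members, 4 of 9 had an unadjusted limma p under 0.05, against 17.3% of all genes. The median difference of the 9 members was 0.21 log2 units, beside 0.00075 for all genes tested. All 9 differences were positive, as were 50.2% of those of all genes. Every deletion mouse lay above every control for Prcp and Cav1, an arrangement found in 0.243% of all genes tested. Since the members were chosen with earlier results of these data known, these shares describe them and do not test the set.

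**Figure D1:**
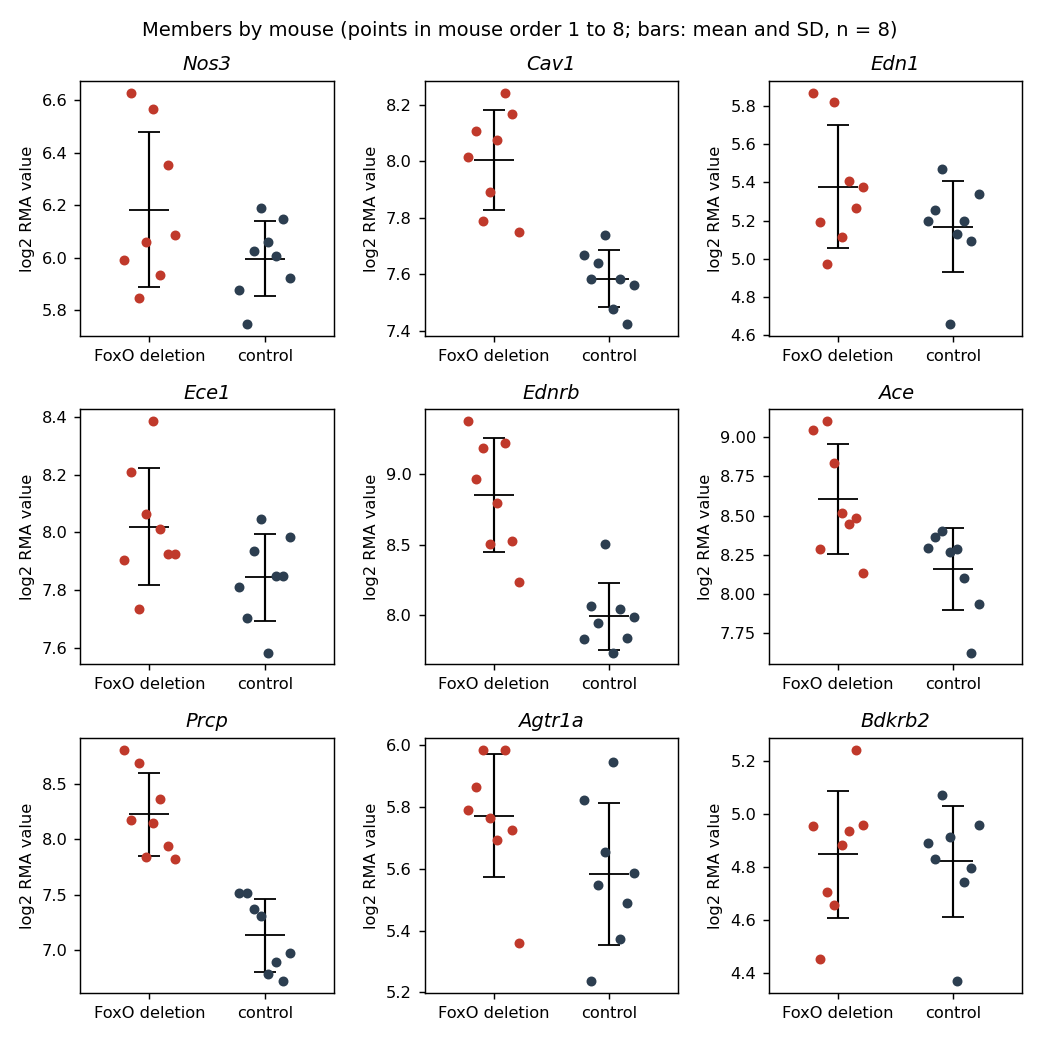
Log2 RMA values of the 9 measured members, 1 point per mouse, with FoxO deletion mice left of controls and bars for the mean and SD (n = 8 each). Prcp and Cav1 show no overlap between the groups, and for Ednrb 6 of 8 deletion mice lie above every control.

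The promoters of these 3 genes are shown because these are the members that rose. Each window holds 250 bases before and 50 after an annotated start (RefSeq, GRCm38.p6): chr7:92875003-92875302 on the plus strand for Prcp, chr14:103843652-103843951 on the minus strand for Ednrb and chr6:17306085-17306384 on the plus strand for the first of 2 Cav1 starts. Capitals mark GGAA or its reverse complement TTCC, the core to which ETS factors such as the endothelial factor Erg bind.
Prcp promoter: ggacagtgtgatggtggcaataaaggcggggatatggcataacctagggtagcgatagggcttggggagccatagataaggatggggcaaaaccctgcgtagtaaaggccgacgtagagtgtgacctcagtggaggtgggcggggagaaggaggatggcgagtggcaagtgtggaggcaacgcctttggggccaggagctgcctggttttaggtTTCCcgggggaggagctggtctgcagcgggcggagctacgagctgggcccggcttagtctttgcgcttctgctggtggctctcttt
Ednrb promoter: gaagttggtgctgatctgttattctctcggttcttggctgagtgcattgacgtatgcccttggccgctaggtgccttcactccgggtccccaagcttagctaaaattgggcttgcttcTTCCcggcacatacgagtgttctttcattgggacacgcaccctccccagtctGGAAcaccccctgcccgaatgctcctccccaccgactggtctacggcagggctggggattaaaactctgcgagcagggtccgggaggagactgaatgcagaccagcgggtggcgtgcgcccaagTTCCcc
Cav1 promoter: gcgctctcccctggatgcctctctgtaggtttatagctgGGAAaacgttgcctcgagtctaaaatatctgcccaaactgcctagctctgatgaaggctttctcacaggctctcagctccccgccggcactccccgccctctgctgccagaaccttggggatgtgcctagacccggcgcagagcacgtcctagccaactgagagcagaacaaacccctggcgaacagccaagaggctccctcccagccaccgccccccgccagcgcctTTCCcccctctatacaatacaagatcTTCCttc
The forkhead consensus TGTTTAC, searched on both strands, was in none of the 13 promoter windows of 8 members. It was in 3.65% of 32851 mouse promoter windows of the same length. The member windows form 12 separate regions, since 2 Ece1 starts lie 43 bases apart and share most of their window. The 8 members include Ednra, and Nos3 and Agtr1a had no window to search. The shorter forkhead core AAACA, which lies within that consensus on the opposite strand, was in 5 of 12 member regions and in 50.54% of all windows, but in none of the 3 shown. The GGAA core was in 11 of 12 member regions and in 95.98% of all windows. It matched 1 time in the Prcp window and 3 times each in those of Ednrb and Cav1. A match is only a run of letters, and a window without one says nothing about binding elsewhere in the gene.

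Before the members are taken in turn, the state of the arrays is given. Array medians lay between 4.43 and 4.61 log2 units, and all 10 muscle fibre markers passed the filter on dim probe sets, with a list mean of 12.40 ± 0.04 in deletion mice and 12.32 ± 0.13 in controls (SD, n = 8 each). Transcripts of the targeted genes did not pass in whole muscle: Foxo1 differed by 0.07, Foxo3 by 0.50 and Foxo4 by -0.24 (limma adjusted p = 0.804, 0.0762 and 0.236). The liver transcript Alb was over 2 log2 units above its own median across the 16 arrays in 4 deletion mice and 2 controls. Endothelial markers moved with the group: 11 of 20 rose and 0 fell, and the list mean ran from 7.15 to 7.78 in deletion mice and from 6.97 to 7.32 in controls. Erg, an endothelial transcription factor, rose by 0.52, and Ptprb, a phosphatase at endothelial junctions, by 0.73, with the 2 smallest p of the list. Of the 9 endothelial markers that did not pass, Kdr differed by 0.08, Robo4 by -0.03 and Sox18 by -0.08. Of the macrophage markers 3 of 12 rose and 0 fell, with list means from 6.31 to 7.56 in deletion mice and from 6.10 to 6.73 in controls. Mertk, a receptor for engulfing dead cells, rose by 0.42, and C1qa, a complement subunit, by 0.56. None of 12 smooth muscle and pericyte, 10 fibroblast, 7 adipocyte, 5 Schwann cell and 5 liver genes tested passed with limma, and their list differences were 0.15, 0.15, 0.21, 0.54 and 0.58. Of 4 neutrophil genes tested 1 rose, and that list differed by 0.64. The part of these lists in the members' differences was not tested beyond the fits with a list as covariate. In whole tissue, a change in the number of cells of a type and a change in RNA per cell cannot be told apart.

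Nos3, the endothelial nitric oxide synthase, ran from 5.85 through a median of 6.07 to 6.63 log2 units in deletion mice, and from 5.75 through 6.02 to 6.19 in controls. Only deletion mice 2, 5 and 7 exceeded the highest control, and the ranges overlapped. The difference was 0.19 (95% interval -0.04 to 0.41, limma adjusted p = 0.390). These 3 stood 0.63, 0.57 and 0.35 above the control mean, and the other 5 between -0.15 and 0.09 of it. Most of the difference thus lay in 3 mice.

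Cav1 encodes caveolin 1, which builds the flask-shaped membrane pits called caveolae and holds Nos3 inactive there. It ran from 7.75 through 8.05 to 8.24 in deletion mice and from 7.42 through 7.58 to 7.74 in controls. The groups did not overlap, but the gap between the lowest deletion mouse and the highest control was only 0.01. The difference was 0.42 (SE 0.08, limma adjusted p = 0.00997, exact two-sided permutation p = 0.000155, the smallest that 8 against 8 mice can give). Within each mouse the Cav1 value minus the Nos3 value averaged 1.82 ± 0.28 in deletion mice and 1.59 ± 0.18 in controls (SD, n = 8 each), and the groups overlapped. It is 1 of 3 pairs of partner genes chosen after their values were seen, which are given as descriptions without p-values.

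The other caveolar genes did not pass the threshold (0 of 9 with limma), though 5 of 9 had an unadjusted limma p under 0.05, all higher. Among all genes tested, 10.5% had such a p and were higher. Cavin3 read 7.07 ± 0.27 in deletion mice and 6.70 ± 0.19 in controls, and Cavin2 read 8.62 ± 0.25 and 8.26 ± 0.16 (SD, n = 8 each). Both encode cavins, coat proteins of caveolae, and their differences were 0.37 (adjusted p = 0.0938) and 0.36 (adjusted p = 0.0762). The median difference of the 9 caveolar genes was 0.24. Without deletion mouse 8, Cav2, Cavin1, Cavin2, Cavin3 and Ehd2 passed. In that fit 680 of all genes passed, against 249 with all mice. None of the caveolar genes passed when any other single mouse was left out. With all mice, Cav2 passed under a stricter filter at the 75th percentile, and Cav2, Cavin2 and Ehd2 passed with array weights. At an adjusted p under 0.10, Cav2, Cavin2 and Cavin3 passed.

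Among 16 tested genes of nitric oxide synthesis and its control, 1 rose, 0 fell and 15 did not pass. Nostrin, an adaptor that moves Nos3 away from the cell surface, was the one that rose, at 5.46 ± 0.23 in deletion mice and 4.99 ± 0.22 in controls. The difference was 0.47 (SE 0.11, limma adjusted p = 0.0333). The highest control was exceeded by 7 of 8 deletion mice. The Nostrin call was lost without any 1 of deletion mice 1, 2, 3 and 6 or controls 1, 2, 3, 5 and 7, where limma adjusted p ran up to 0.0751. It was also lost with no filter (adjusted p = 0.0584), centred arrays (0.0507) and the liver list as a covariate (0.055). Slc7a1, which carries the substrate arginine into cells, differed by 0.26, and Nos1, the neuronal synthase that muscle fibres also make, by -0.24 (limma adjusted p = 0.250 and 0.435). Of 8 genes of the response to nitric oxide 0 passed and 0 had an unadjusted limma p under 0.05. Gucy1a1, a subunit of the nitric oxide receptor guanylate cyclase, differed by 0.20, and Pde5a, which degrades its product cyclic GMP, by 0.14.

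Of the endothelin genes, the receptor Ednrb rose, and values of the ligand and its converting enzyme did not pass. Edn1, the precursor of endothelin 1, ran from 4.98 through 5.32 to 5.87 in deletion mice and from 4.66 through 5.20 to 5.47 in controls. The groups overlapped, and the difference was 0.21 (-0.06 to 0.48, limma adjusted p = 0.414). Deletion mice 1 and 4 stood 0.70 and 0.65 above the control mean. Ece1, endothelin-converting enzyme 1, ran from 7.74 through 7.97 to 8.39 in deletion mice and from 7.58 through 7.85 to 8.05 in controls. Its groups also overlapped, with a difference of 0.18 (-0.01 to 0.36, limma adjusted p = 0.312).

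Ednrb ran from 8.24 through 8.88 to 9.37 in deletion mice and from 7.74 through 7.96 to 8.51 in controls. All deletion mice but mice 4 and 8 lay above every control, and the highest control was control 4. The difference was 0.85 (SE 0.15, limma adjusted p = 0.00782, exact permutation p = 0.000466, n = 8 each). Within mice, Ednrb minus Edn1 averaged 3.47 ± 0.51 in deletion mice and 2.83 ± 0.43 in controls, and 1 deletion mouse lay above every control. None of the 6 other endothelin genes passed, and 0 had an unadjusted limma p under 0.05. Mme, the peptidase neprilysin that degrades endothelin, differed by -0.23, and Ece2, a second converting enzyme, by 0.16.

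Among members of the angiotensin system Prcp, 1 of the peptidases that break angiotensin II down, rose. Ace, which makes angiotensin II, and Agtr1a, a receptor for it, did not pass the threshold. Ace, angiotensin-converting enzyme, ran from 8.13 through 8.50 to 9.10 in deletion mice and from 7.63 through 8.28 to 8.40 in controls. The highest control was exceeded by 6 of 8 deletion mice, and mice 1, 3 and 4 stood 0.89, 0.94 and 0.67 above the control mean. The difference of 0.45 (0.15 to 0.74) did not pass (limma adjusted p = 0.114), with an exact permutation p of 0.0106 before adjustment (n = 8 each). Without deletion mouse 8, in which Ace stood at -0.03 of the control mean, the difference was 0.51 and passed (limma adjusted p = 0.0374). Ace passed in no other fit that left out 1 mouse, and 680 of all genes passed in this one.

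Prcp, prolylcarboxypeptidase, removes the last residue of angiotensin II and of des-Arg9-bradykinin, and it activates prekallikrein on endothelial cells. It ran from 7.83 through 8.16 to 8.81 in deletion mice and from 6.72 through 7.14 to 7.52 in controls. The groups did not overlap, with a gap of 0.31 between them. The difference was 1.09 (SE 0.16, limma adjusted p = 0.00215, exact permutation p = 0.000155), the 10th smallest p among all genes tested. Within mice, Prcp minus Ace averaged -0.38 ± 0.29 in deletion mice and -1.02 ± 0.23 in controls, the highest of which 7 of 8 deletion mice exceeded.

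Agtr1a, the type 1a angiotensin receptor through which angiotensin II constricts vessels, ran from 5.36 through 5.78 to 5.99 in deletion mice and from 5.24 through 5.57 to 5.95 in controls. The groups overlapped (difference 0.19, -0.03 to 0.40, limma adjusted p = 0.349). Agtr1b, its close relative, lay under the filter on dim probe sets, and how far their probes are shared was not analysed here. Of the 10 other angiotensin genes tested, 1 rose, 0 fell and 9 did not pass. The one that rose was Enpep, aminopeptidase A, which cleaves angiotensin II to angiotensin III. Enpep read 6.98 ± 0.28 in deletion mice and 6.35 ± 0.22 in controls (SD, n = 8 each). The lowest deletion mouse, at 6.67, stood above the highest control, and the difference was 0.63 (SE 0.12, limma adjusted p = 0.0111). The mast cell proteases Cpa3 and Cma1, of which Cma1 can make angiotensin II, differed by 0.55 and 0.41 with overlapping groups (limma adjusted p = 0.256 and 0.223).

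Bdkrb2, the bradykinin B2 receptor through which kinins dilate vessels, ran from 4.45 through 4.91 to 5.24 in deletion mice and from 4.37 through 4.86 to 5.07 in controls. The difference was 0.03 (-0.20 to 0.25, limma adjusted p = 0.923), and it turned to -0.025 when arrays were centred on their medians. None of the 5 other kinin genes tested passed, and 0 had an unadjusted limma p under 0.05. Bdkrb1, the inducible B1 receptor, differed by -0.10 and F12, the coagulation factor that starts the kinin cascade, by -0.07. Of the 12 genes on the kinin list, 6 lay under the filter and 1 had no probe set. Over all 6 lists 2 of 54 tested genes rose and 0 fell, 3.7% as higher against 1.53% of all genes. The median difference of the 54 was 0.06, and these lists too were chosen with earlier results known.

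**Figure D2:**
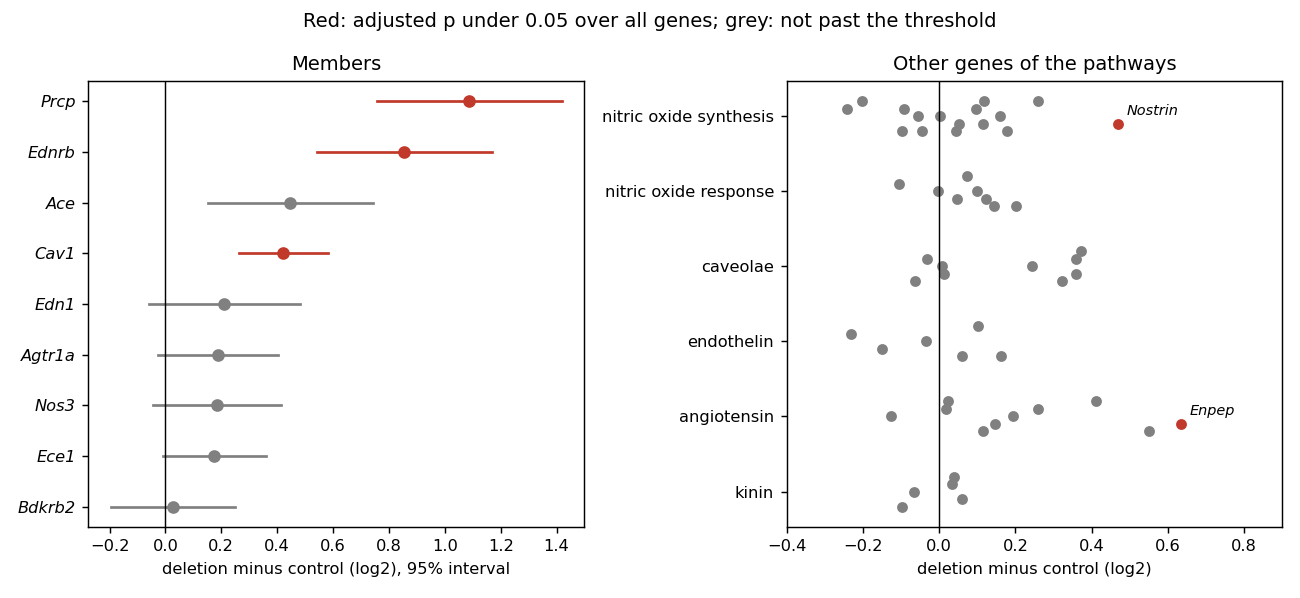
Left, deletion minus control in log2 units with the 95% interval for the 9 members, and right, the same difference as a point for each of 54 other tested genes in 6 lists. Red marks limma adjusted p under 0.05 over all genes: Prcp, Ednrb and Cav1 among the members, and Nostrin and Enpep among the others.

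The deletion mice did not hold the same order for every member. Prcp and Ednrb were highest in deletion mice 1, 3 and 6, and both were lowest in mouse 8, where Prcp stood 0.69 and Ednrb 0.24 above the control mean. In mouse 3, by contrast, Nos3, Ece1 and Edn1 were the lowest of the 8, at -0.15, -0.11 and -0.19 of the control mean. Cav1 was highest in mice 6, 7 and 2.

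**Figure D3:**
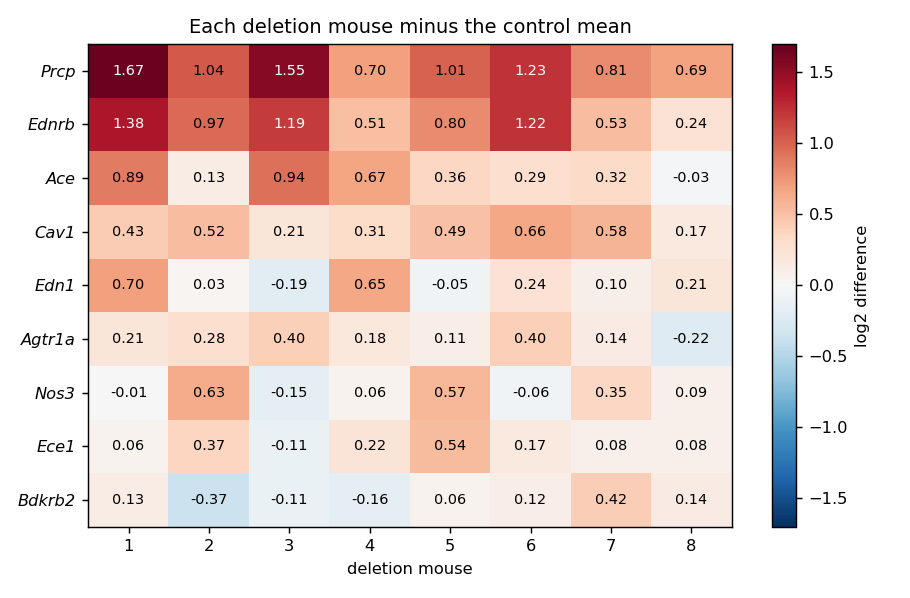
Each deletion mouse (columns, 1 to 8) minus the mean of the 8 controls, in log2 units, for the 9 members (rows). Prcp is positive in all 8 mice, between 0.69 and 1.67, and Nos3 and Ece1 are high in mice 2 and 5 and below the control mean in mouse 3.

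Correlations were taken within each group of 8 mice, since the groups differ in level. Of 108 relations, 36 pairs of members and each member with the endothelial and the macrophage list mean in both groups, none passed an adjusted p of 0.05 by Pearson's r with exact permutation, and 13 had an unadjusted exact p under 0.05. Ednrb and Prcp had r = 0.93 in deletion mice (exact permutation p = 0.000794, adjusted p = 0.0857) and rho = 0.98 (exact p = 0.000397, adjusted p = 0.0429). Without the 2 mice farthest from the Ednrb median r was 0.91. In controls the same pair had r = 0.35 and rho = 0.36 (exact p = 0.452 and 0.389), and the difference between the groups was not tested. The points share arrays and their normalization.

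Correlations of members with the 2 marker lists are given as values, since none passed adjustment and differences between correlations were not tested. With the endothelial list, Ece1 had r = 0.82 and rho = 0.74 in deletion mice (exact p = 0.0146 and 0.0416, adjusted p = 0.240 and 0.449), and r = 0.88 without the 2 farthest mice. In controls Ece1 had r = 0.55 and rho = 0.60 (exact p = 0.160 and 0.124), and r = 0.26 without the 2 farthest. Prcp had r = 0.07 and rho = 0.31 with the endothelial list in deletion mice (exact p = 0.875 and 0.462). In controls Prcp had r = -0.295 and rho = -0.515 with it (exact p = 0.518 and 0.197). Cav1 had r = 0.76 and rho = 0.62 with the endothelial list in deletion mice (exact p = 0.0309 and 0.115, adjusted p = 0.303 and 0.636). In controls Cav1 had r = 0.26 and rho = -0.04 (exact p = 0.550 and 0.944). Ednrb had r = 0.35 and rho = 0.405 with this list in deletion mice (exact p = 0.393 and 0.327). In controls Ednrb had r = 0.72 and rho = 0.37 (exact p = 0.0731 and 0.365). With the macrophage list, Prcp had r = 0.88 and rho = 0.76 in deletion mice (exact p = 0.0066 and 0.0368, adjusted p = 0.178 and 0.441), falling to r = 0.52 without the 2 farthest mice. In controls it had r = 0.92 and rho = 0.81 (exact p = 0.0065 and 0.0218, adjusted p = 0.178 and 0.441), and r = 0.95 without the 2 farthest. Ace had r = 0.89 and rho = 0.76 with the macrophage list in deletion mice (exact p = 0.00233 and 0.0368, adjusted p = 0.126 and 0.441), and r = 0.63 without the 2 farthest. In controls it had r = 0.67 and rho = 0.79 (exact p = 0.0605 and 0.0279). Ednrb had r = 0.77 and rho = 0.71 with that list in deletion mice, and r = 0.35 and rho = 0.33 in controls (exact p = 0.0215 and 0.0576 in deletion mice, 0.442 and 0.428 in controls).

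**Figure D4:**
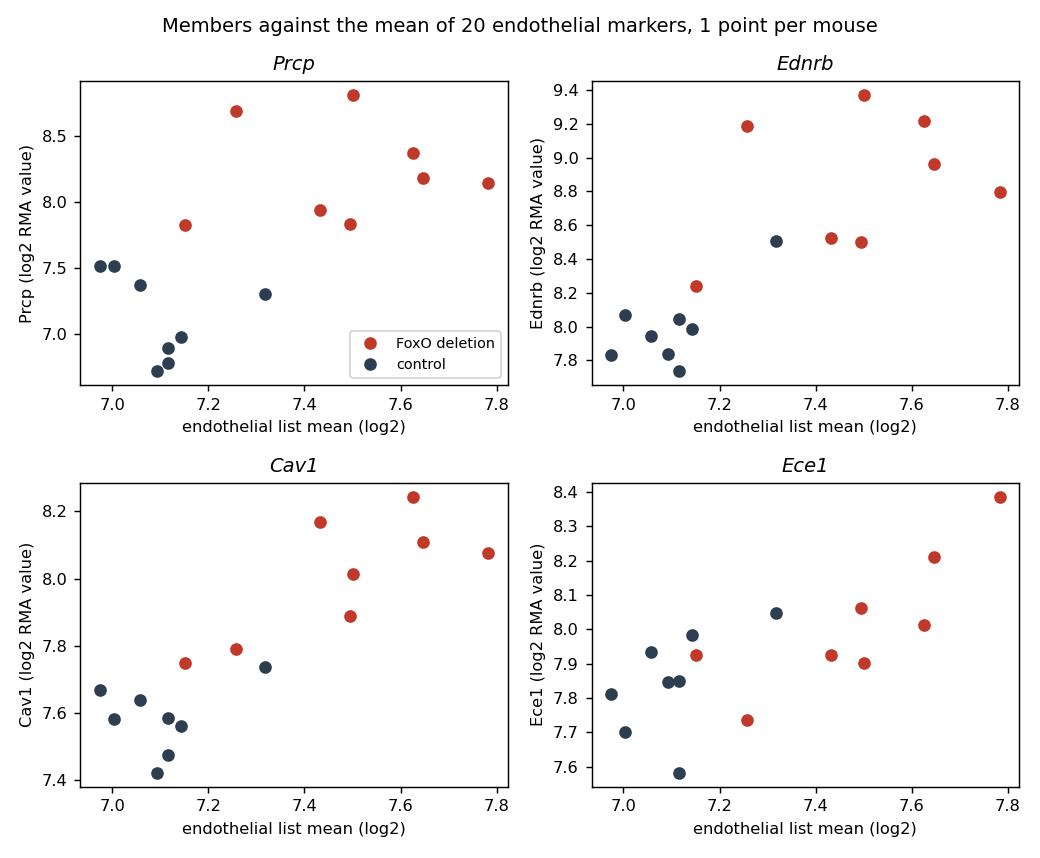
Prcp, Ednrb, Cav1 and Ece1 (log2 RMA value, vertical) against the mean of 20 endothelial markers (log2, horizontal), 1 point per mouse, FoxO deletion in red and controls in dark blue. Prcp and Cav1 deletion mice lie above all controls, whereas Ednrb and Ece1 values of the 2 groups overlap. The list mean ran from 7.15 to 7.78 in deletion mice and from 6.97 to 7.32 in controls, so few mice share a list level.

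Fits with a marker list as a covariate moved some members' differences up and others down. The lists themselves differ between the groups, so list and group share part of their variation in these fits. With the endothelial list the difference was larger for Prcp (1.12, against 1.09 without it), Ace (0.51 against 0.45), Edn1 (0.34 against 0.21) and Bdkrb2 (0.10 against 0.03). It was smaller for Ednrb (0.52 against 0.85), Cav1 (0.20 against 0.42) and Agtr1a (0.05 against 0.19), and negative for Nos3 (-0.14 against 0.19) and Ece1 (-0.13 against 0.18). No member passed there with limma, with adjusted p = 0.206 for Prcp, and 6 of all 13601 genes did. An unadjusted limma p under 0.05 was found there for 3 members and for 1326 of all genes. With the macrophage list, a fit added after the data were seen, Prcp stood at 0.69 and passed (limma adjusted p = 0.00516), while Ednrb at 0.57 and Cav1 at 0.41 did not (adjusted p = 0.113 and 0.0738). Ace stood at 0.12 in that fit. Without the 6 mice with high Alb, 4 deletion mice and 2 controls, Prcp differed by 1.06, Ednrb by 0.78 and Cav1 by 0.38. None of the 3 passed (limma adjusted p = 0.0894, 0.224 and 0.256), and 7 of all genes did. In that fit 3 members and 1652 of all genes had an unadjusted limma p under 0.05. Enpep stood at 0.62 with the endothelial list and 0.54 without the high Alb mice, and Nostrin at 0.26 and 0.44. Neither gene passed in these fits. With the liver list as a covariate and all mice kept, Prcp differed by 1.09, Ednrb by 0.85 and Cav1 by 0.42. All 3 passed there (limma adjusted p = 0.00429, 0.0153 and 0.0172), among 137 of all genes.

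**Figure D5:**
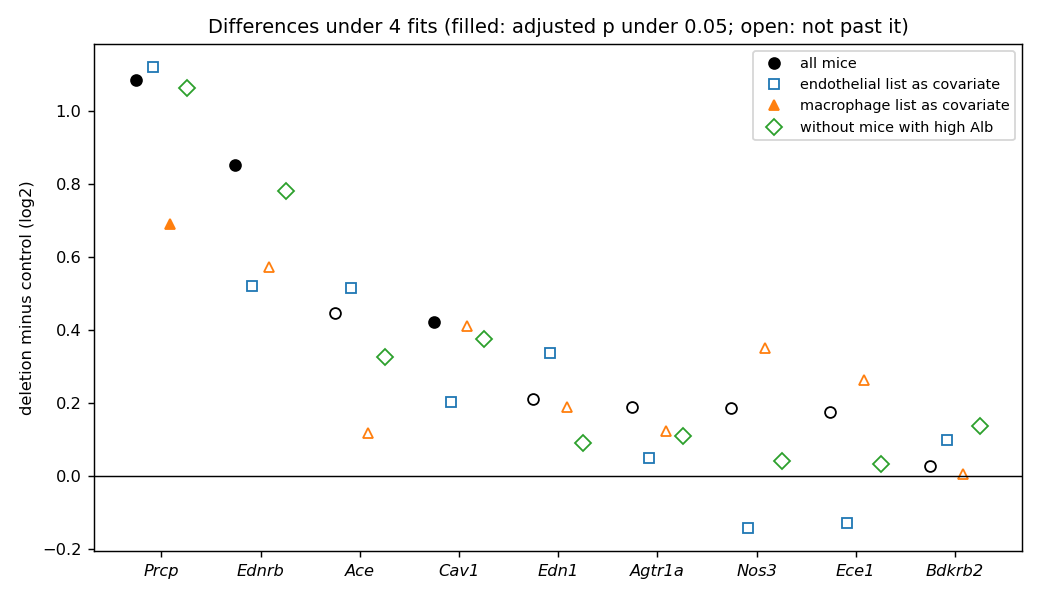
Deletion minus control in log2 units (vertical) for the 9 members in 4 fits, filled where the limma adjusted p was under 0.05. Prcp stays between 0.69 and 1.12 in all 4, and Nos3 and Ece1 lie under 0 with the endothelial list as covariate.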

How the data were processed

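Each of 16 mice gave 1 expression array of gastrocnemius muscle. Deposited log2 values, 1 for each probe set, came from RMA run by the authors with oligo, per the submitters' processing notes. The sources used here do not give versions, scan dates or the array's genome build. RMA sets arrays to a common distribution and compresses the differences of dim probe sets.

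Of 41345 probe sets, 23521 had 1 gene symbol, 1814 several and 16010 none, and those with 1 were named. A probe set was kept above its array median in at least 8 mice, and the brightest per gene was used, leaving 13601 genes. All 9 matched members passed, 8 of them in all 16 mice and Bdkrb2 in 15. Each has 1 probe set. Groups come from the labels, which call the mice separate biological replicates. The comparison used limma 3.58.1 (lmFit, then eBayes; R 4.3.3), two-sided, with group as the only term and Benjamini-Hochberg adjustment over all genes tested. Single values were tested by exact permutation over 12870 splits, which can give no p under 0.000155. Intervals are 95% confidence intervals. The number of mice limits the precision.

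The 3 partner pairs, for which no p-values are reported, and the macrophage and Schwann cell covariates were added after the data were seen. The members and lists were chosen with earlier results of these data known. Named are all members, the targeted genes, other pathway genes past the threshold and the 2 with the largest difference among the rest of each list, and from each marker list the 2 with the smallest p, of which those that passed in the endothelial and macrophage lists are printed. Cav2, Cavin1 and Ehd2, which passed without deletion mouse 8, are named outside that rule. So are the endothelial markers Kdr, Robo4 and Sox18, which did not pass. Of 70 other pathway genes, 6 had no probe set and 10 lay under the filter. Markers were read as lists for endothelial, smooth muscle and pericyte, macrophage, neutrophil, fibroblast, adipocyte, Schwann, liver and muscle fibre genes. Promoters are RefSeq's. Alternatives were 2 filters, 2 normalizations, 2 ways to treat probe sets, array weights, a variance with trend and robust fitting, Welch's test, the replicate number as a block, list covariates, an adjusted p under 0.10 and leaving out mice.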

Additional observations from a re-analysis of the deposited data

Results flagged for a closer look

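In 36 groups of 8 mice, 9 members and 9 marker lists in both groups, 7 had 1 mouse far from the rest by Dixon's criterion, which chance gives in about 1 group in 20. Among the members, Agtr1a read 5.36 in deletion mouse 8, where the other deletion mice lay between 5.69 and 5.99. Ednrb read 8.51 in control 4, where the other controls lay between 7.74 and 8.07. The same mouse had the lowest Edn1 of the controls, at 4.66 beside 5.09 to 5.47, and the highest smooth muscle and pericyte list mean, at 7.61 beside 7.29 to 7.44. Bdkrb2 read 4.37 in control 5 beside 4.74 to 5.07 in the other controls. The Schwann cell list mean was 7.24 in control 1, beside 5.80 to 6.12 in the others, and the neutrophil list mean was 4.85 in control 8, beside 4.38 to 4.57.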

How the results depend on the processing

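Prcp, Ednrb and Cav1 each passed in all 16 fits that left out 1 mouse, with differences of 1.00 to 1.14, 0.78 to 0.94 and 0.39 to 0.46. Left-out mice gave 3 to 4 members called, 1 to 8 other pathway genes and 107 to 680 of all genes. The count of all genes was 134, 127, 158, 107, 162 and 680 without deletion mice 1, 2, 5, 6, 7 and 8 and 160, 154, 129, 131, 143 and 135 without controls 1, 2, 3, 5, 6 and 7. Against 249 genes, 3 members and 2 pathway genes, the endothelial covariate gave 6, 0 and 0, dropping the 6 high Alb mice 7, 0 and 0, and the added macrophage covariate 37, 1 and 0. In these 3 fits 4, 3 and 8 pathway genes had an unadjusted limma p under 0.05, as did 1326, 1652 and 1521 of all genes. The added Schwann cell covariate gave 34 genes and 0 pathway genes (8 unadjusted, beside 1388 of all genes) and lost Cav1 (0.35, limma adjusted p = 0.10). No filter gave 137 genes and 1 pathway gene, losing Nostrin, as did the liver covariate. An adjusted p under 0.10 gave 505 and 5, Welch's test 68 and 1, and array weights 5 pathway genes. Welch's test lost Ednrb and Nostrin (adjusted p = 0.0536 and 0.0845). Centred arrays gave 1 pathway gene, and the share of higher calls among all genes was 65.3% there and 72.1% after a further quantile normalization, against 83.5%. It was lowest with the macrophage covariate, at 45.9% (17 higher and 20 lower), and the endothelial covariate gave 3 higher and 3 lower. With the replicate number as a block 213 genes, 3 members and 1 pathway gene passed (Nostrin adjusted p = 0.0689). Same-numbered mice had correlations of -0.08 to 0.25, over 0.1 in 4 of 8 pairs, and 1 of 8 deletion mice correlated best with its own number, so the numbers were not taken as pairs. Differences turned negative for Nos3 (-0.14) and Ece1 (-0.13) with the endothelial covariate and for Bdkrb2, which read -0.025 with centred arrays, -0.029 without deletion mouse 7 and -0.037 without control 5, within a range of -0.037 to 0.085 over the left-out mice. The causes were not tested, though leaving out mice means fewer samples. By exact permutation 4 members had an unadjusted p under 0.05, against 3 past limma's threshold.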

Other observations

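The spread between mice was larger in the deletion group for 8 of 9 members. For Nos3 the SD was 0.30 in deletion mice and 0.14 in controls (n = 8 each), for Cav1 0.18 and 0.10, and for Ednrb 0.40 and 0.24. Agtr1a was the exception, with an SD of 0.20 in deletion mice and 0.23 in controls. The marker list means were also more spread in deletion mice, as for the endothelial list (SD 0.21 and 0.10). The muscle fibre list was the only exception (SD 0.04 and 0.13). Differences in spread were not tested, and the share over all genes was not determined.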
